A study of Mus musculus with 16 samples.

Results

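p53, the transcription factor encoded by Trp53, and 9 genes it is known to activate were followed across 4 groups of cultured mouse fat progenitors. The 10 genes, Trp53, Mdm2, Cdkn1a, Ccng1, Bbc3, Pmaip1, Phlda3, Sesn1, Gdf15 and Btg2, were chosen by their symbols, and all 10 were found among the 27179 entries of the normalized count table. The cells were PDGFRb+ stromal cells of C57BL/6 mice, isolated from the inguinal white fat depot with a flow sorter and grown with serum before treatment. Each library comes from adipose progenitor cells (APCs) labelled DPP4_pos or DPP4_neg, after the surface peptidase DPP4, and given isoproterenol or its PBS vehicle for 4 h. The groups are DPP4_pos isoproterenol, DPP4_pos vehicle, DPP4_neg isoproterenol and DPP4_neg vehicle, with 4 libraries each. Isoproterenol, a synthetic catecholamine, activates beta-adrenergic receptors. Its dose is 10 mM in the labels, whereas cultured cells usually receive micromolar doses, and whether the unit is right was not settled. The labels give no age or sex of the mice and no passage number, and they do not say whether replicates are separate cultures or animals. The p-values therefore cover the spread among these libraries alone, and that spread may be technical.

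In an unstressed cell, p53 protein is made and destroyed continuously, because the ubiquitin ligase Mdm2 binds it and marks it for the proteasome. DNA damage and other stresses free p53 from Mdm2, and p53 then binds a pair of short half-sites near its target genes, Mdm2 among them, which closes a feedback loop. Its targets halt the cell cycle, repair DNA, trigger cell death or adjust metabolism, and many of them also answer to other transcription factors. Because p53 is governed mainly at the level of the protein, which was not measured here, the level of Trp53 RNA is not a measure of p53 activity. Beta-adrenergic receptors raise cAMP, and the cAMP-activated factor CREB binds a different element, TGACGTCA.

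The 16 libraries held 9823799 to 28627223 reads in genes, and the DPP4_pos isoproterenol libraries were the shallowest, at 9823799 to 16563940. A member had between 25 reads (Bbc3) and 13029 reads (Ccng1) in a library. Dpp4 followed the sort, with 2104 to 2326 normalized counts in DPP4_pos isoproterenol, 2853 to 3227 in DPP4_pos vehicle, 7.89 to 13.1 in DPP4_neg isoproterenol and 15.3 to 24.6 in DPP4_neg vehicle libraries. The stromal markers Pdgfrb, Pdgfra, Col1a1, Dcn and Lum were present in every library. Of 10 macrophage and leukocyte markers none was at 0 in all libraries and 4 (Ptprc, C1qa, C1qb, Fcgr1) were at 0 in at least 1 library. Their summed level was 668 to 1759 normalized counts in DPP4_pos isoproterenol, 583 to 1346 in DPP4_pos vehicle, 736 to 1829.8 in DPP4_neg isoproterenol and 419 to 995 in DPP4_neg vehicle libraries. In bulk samples such as these, fewer cells of a type and less RNA per cell cannot be told apart.

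Where the known binding elements lie near annotated starts of these genes is shown first, and the results refer back to it. RefSeq promoters of GRCm38.p6 were found for 9 of the 10 genes, all but Pmaip1, with 14 promoters in all, and the 250 bases before each start were searched on both strands. A p53 half-site occurred in 5 of the 14 member promoters, those of Cdkn1a, Mdm2, Ccng1, Trp53 and Sesn1, and in 7.13% of all 32851 promoters. A pair of half-sites at most 13 bases apart occurred in 1 member promoter, that of Cdkn1a, and in 0.0639% of all promoters. The complete cAMP response element TGACGTCA occurred in 1 member promoter, that of Btg2, and in 1.55% of all promoters. Its core TGACG, which lies inside the complete element, occurred in 3 member promoters, those of Btg2, Bbc3 and Sesn1, and in 17.8% of all promoters. The windows below run 5′ to 3′ on the strand of the gene, with capitals on the matched letters. They are Cdkn1a (chr17:29090886-29090957, plus strand), Mdm2 (chr10:117710915-117710964, minus strand), Ccng1 (chr11:40755442-40755491, minus strand), Trp53 (chr11:69580264-69580313, plus strand), Sesn1 (chr10:41887246-41887402, plus strand) and Btg2 (chr1:134079294-134079341, minus strand).
Cdkn1a: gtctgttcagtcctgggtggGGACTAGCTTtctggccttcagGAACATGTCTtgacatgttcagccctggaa
Mdm2: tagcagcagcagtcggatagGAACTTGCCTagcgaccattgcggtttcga
Ccng1: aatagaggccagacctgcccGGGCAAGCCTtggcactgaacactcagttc
Trp53: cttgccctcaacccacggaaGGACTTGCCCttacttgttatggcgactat
Sesn1: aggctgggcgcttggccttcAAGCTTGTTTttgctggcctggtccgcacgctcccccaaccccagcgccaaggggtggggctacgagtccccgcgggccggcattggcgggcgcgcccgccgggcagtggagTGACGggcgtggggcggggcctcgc
Btg2: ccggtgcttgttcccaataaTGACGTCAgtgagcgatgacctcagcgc
In the windows of Cdkn1a, Mdm2, Ccng1 and Trp53 the capitals are p53 half-sites, in that of Sesn1 a half-site and then, further on, the cAMP response core, and in that of Btg2 they are the cAMP response element. The Cdkn1a pair lies at positions -73 to -42 from the start and the Btg2 element at -166 to -159. The Sesn1 half-site lies at -173 to -164 and its cAMP response core at -61 to -57, and the core in the Bbc3 promoter lies at -55 to -51. Positions count from the start of the promoter searched, and with 14 promoters for 9 genes a gene can have more than 1. The Sesn1 window lies inside the gene, whose first base is 41809935. So does the Bbc3 window, which begins at 16309508, in a gene whose first base is 16308393. Only exact matches are marked. The bases tgacatgttc, directly after the second Cdkn1a half-site, differ from the half-site pattern in their first letter alone and stay unmarked. A match is a run of letters and not a measured binding site, and a window without one says nothing about the factor.

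**Figure D1:**
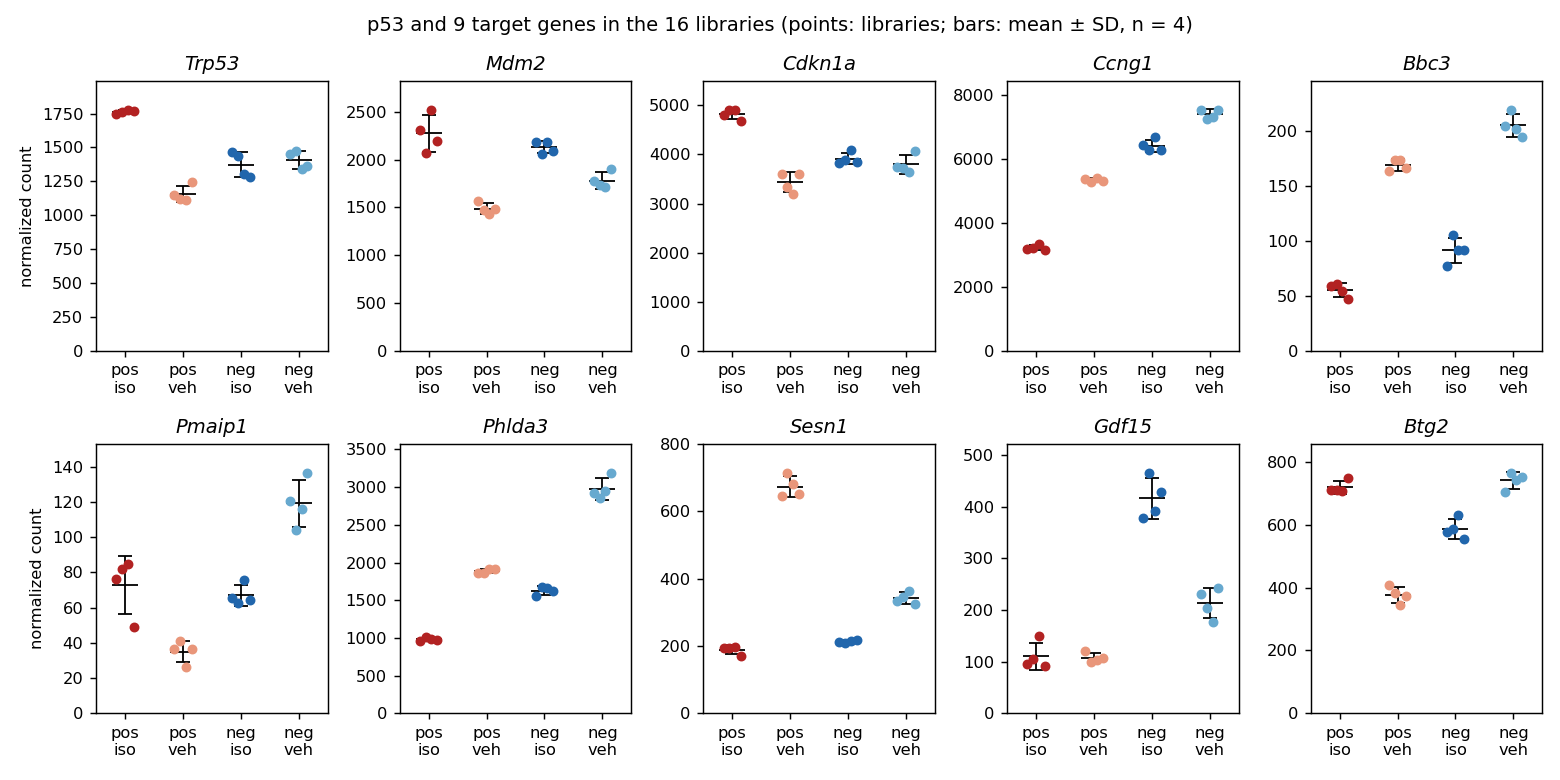
Normalized count of each of the 10 genes in every library (vertical axes from 0, a separate scale for each gene); columns are DPP4_pos isoproterenol (pos iso), DPP4_pos vehicle (pos veh), DPP4_neg isoproterenol (neg iso) and DPP4_neg vehicle (neg veh), points are libraries, and bars are the mean ± SD of 4. Trp53 is highest in the DPP4_pos isoproterenol libraries, whereas Ccng1, Bbc3 and Phlda3 are lowest there.

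Isoproterenol changed most of the 10 genes in both populations, as it did most genes tested. Of 14005 genes tested, 11581 changed in DPP4_pos and 9199 in DPP4_neg APCs. The members did not move as a block. In DPP4_pos APCs, 5 members rose (Trp53, Mdm2, Cdkn1a, Pmaip1 and Btg2) and 4 fell (Ccng1, Bbc3, Phlda3 and Sesn1), while Gdf15 did not pass the test. In DPP4_neg APCs, 2 rose (Mdm2 and Gdf15) and 6 fell (Ccng1, Bbc3, Pmaip1, Phlda3, Sesn1 and Btg2), while Trp53 and Cdkn1a did not pass. A change means an adjusted p under 0.05 in limma, fitted on log2(normalized count + 1) over the 14005 genes that passed the filter on low values, as all 10 members did. These counts stand against a broad background, since 39.4% of all genes were higher and 43.3% lower with isoproterenol in DPP4_pos APCs, and 32.1% were higher and 33.6% lower in DPP4_neg APCs. Changes of at least 2-fold were found for 3 members in DPP4_pos APCs, where 30.7% of all genes passed the same rule, and for 1 member in DPP4_neg APCs, where 15.3% did. The median log2 difference was 0.25 over the members and -0.05 over all genes in DPP4_pos APCs, and -0.27 over the members and -0.02 over all genes in DPP4_neg APCs. Of the 7 members that changed in both populations, Mdm2 rose and Ccng1, Bbc3, Phlda3 and Sesn1 fell in both, whereas Pmaip1 and Btg2 moved in opposite directions.

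The scale of the DPP4_pos comparison depends on the normalization. The authors' normalized counts summed to 18373884 to 18618379 in DPP4_pos isoproterenol libraries, against 15178959.5 to 15405397 in DPP4_pos vehicle libraries. With libraries scaled by their total reads in genes, an alternative chosen after seeing the data, the median log2 difference of all genes in DPP4_pos APCs was -0.33, and 33.0% of the genes called were higher, against 47.6% with the authors' scaling. Under it, Trp53 (0.34), Mdm2 (0.34), Cdkn1a (0.22), Pmaip1 (0.75) and Btg2 (0.66) still rose in DPP4_pos APCs on the log2 scale, and the 4 members that fell still fell.

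Trp53 (chromosome 11, 69580359 to 69591873, plus strand) is the source of p53 itself. It had 1748, 1761, 1777 and 1770.1 normalized counts in the 4 DPP4_pos isoproterenol libraries, against 1147, 1117, 1111 and 1242 in the 4 DPP4_pos vehicle libraries. In DPP4_neg APCs it had 1465, 1440.4, 1305 and 1281 normalized counts in isoproterenol libraries, against 1449, 1473, 1342 and 1365 in vehicle libraries. The DPP4_pos isoproterenol libraries lay above all others, the DPP4_pos vehicle libraries lay below all others, and the ranges of the DPP4_neg groups overlapped. Within DPP4_pos isoproterenol the coefficient of variation was 0.703%. Counting error alone is larger at the 942 to 1556 reads there, so 0.703% does not measure precision. Trp53 was 1.53-fold higher with isoproterenol in DPP4_pos APCs (log2 difference 0.61 ± 0.05, limma adjusted p = 7.32e-11). The log2 difference in DPP4_neg APCs was -0.04 ± 0.05 (limma adjusted p = 0.502). The responses of the populations differed by 0.65 ± 0.07 on the log2 scale (limma adjusted p = 2.75e-08). A processed copy, Trp53-ps, lies on chromosome 17 from 54419597 to 54421236 in GRCm38 and was not analysed here, so some reads counted for Trp53 may come from it.

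Mdm2 (chromosome 10, 117688875 to 117710758, minus strand) encodes the ligase that degrades p53. It had 2312, 2072, 2519 and 2193 normalized counts in the 4 DPP4_pos isoproterenol libraries, against 1568, 1469, 1427 and 1481 in the 4 DPP4_pos vehicle libraries. The DPP4_neg libraries showed 2179, 2062, 2182 and 2094 normalized counts in isoproterenol libraries, against 1776, 1729, 1714 and 1904 in vehicle libraries. Both isoproterenol groups lay above both vehicle groups and overlapped each other, with DPP4_pos vehicle lowest. Mdm2 rose 1.53-fold in DPP4_pos APCs (log2 difference 0.61 ± 0.05, limma adjusted p = 1.94e-10) and 1.20-fold in DPP4_neg APCs (log2 difference 0.26 ± 0.05, limma adjusted p = 0.000102). The DPP4_pos response exceeded the DPP4_neg response by 0.35 ± 0.07 on the log2 scale (limma adjusted p = 0.000178). That difference did not pass with quantile normalization (0.10, limma adjusted p = 0.189) or with total read scaling (0.09, limma adjusted p = 0.245).

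Cdkn1a (chromosome 17, 29090976 to 29100727, plus strand) encodes p21, the inhibitor of cyclin-dependent kinases through which p53 arrests the cell cycle, and its promoter holds the pair of half-sites printed above. It had 4814, 4908, 4907 and 4677 normalized counts in the 4 DPP4_pos isoproterenol libraries, against 3606, 3335, 3193 and 3602 in the 4 DPP4_pos vehicle libraries. Under the same treatments DPP4_neg APCs had 3828, 3889.6, 4082 and 3856 normalized counts in isoproterenol libraries, against 3742, 3718, 3645 and 4078 in vehicle libraries. The DPP4_pos isoproterenol libraries were higher than all others, those of DPP4_pos vehicle were lower than all others, and the DPP4_neg groups overlapped, the same order of groups as for Trp53 except that DPP4_neg isoproterenol had the second highest mean. Cdkn1a was 1.41-fold higher with isoproterenol in DPP4_pos APCs (log2 difference 0.49 ± 0.04, limma adjusted p = 3.85e-10), and its log2 difference in DPP4_neg APCs was 0.05 ± 0.04 (limma adjusted p = 0.354). The difference between responses was 0.45 ± 0.06 (limma adjusted p = 1.08e-06). Of the exon bases of Cdkn1a, 273 (7.68%) are shared with AC167363.2 on the opposite strand, and reads of these genes cannot be separated, since no source states that strand was kept.

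Btg2 (chromosome 1, 134075170 to 134079120, minus strand), whose promoter holds the cAMP response element, encodes an antiproliferative protein that promotes the shortening of mRNA tails. It had 710.1, 709, 706 and 748 normalized counts in the 4 DPP4_pos isoproterenol libraries, against 407, 381, 345 and 373 in the 4 DPP4_pos vehicle libraries. DPP4_neg APCs had 577, 585, 631 and 555 normalized counts in isoproterenol libraries, against 705, 765, 741 and 751 in vehicle libraries. DPP4_pos vehicle libraries lay far below the other groups, and DPP4_pos isoproterenol libraries reached the range of DPP4_neg vehicle. With isoproterenol Btg2 rose 1.91-fold in DPP4_pos APCs (log2 difference 0.93 ± 0.05, limma adjusted p = 3.21e-13) and fell 1.26-fold in DPP4_neg APCs (log2 difference -0.33 ± 0.05, limma adjusted p = 9.09e-06). The responses, opposite in direction, differed by 1.27 ± 0.07 (limma adjusted p = 4.00e-12).

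Ccng1 (chromosome 11, 40748552 to 40755311, minus strand) encodes cyclin G1, which recruits a phosphatase that acts on Mdm2, and was the member with the most reads. It had 3185, 3225, 3336 and 3148 normalized counts in the 4 DPP4_pos isoproterenol libraries, against 5379, 5269, 5384 and 5293 in the 4 DPP4_pos vehicle libraries. For DPP4_neg APCs the table gives 6431, 6266, 6665 and 6261 normalized counts in isoproterenol libraries, against 7509, 7235, 7297 and 7525 in vehicle libraries. All 4 groups were apart, with DPP4_pos isoproterenol lowest, then DPP4_pos vehicle, DPP4_neg isoproterenol and DPP4_neg vehicle. Isoproterenol lowered it 1.65-fold in DPP4_pos APCs (log2 difference -0.73 ± 0.03, limma adjusted p = 1.49e-15) and 1.15-fold in DPP4_neg APCs (log2 difference -0.21 ± 0.03, limma adjusted p = 3.59e-06). The fall was greater in DPP4_pos APCs, by -0.52 ± 0.04 on the log2 scale (limma adjusted p = 9.42e-10). Trp53, Mdm2 and Cdkn1a thus differed in direction from Ccng1 within the same DPP4_pos libraries.

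Of the genes for BH3-only proteins, which set off mitochondrial apoptosis, Bbc3 (chromosome 7, 16308393 to 16318205, plus strand) encodes Puma. It had 58.4, 61.0, 54.1 and 47.0 normalized counts in the 4 DPP4_pos isoproterenol libraries, against 163, 174, 174 and 166 in the 4 DPP4_pos vehicle libraries. In DPP4_neg APCs there were 76.9, 105, 91.5 and 91.9 normalized counts in isoproterenol libraries, against 204, 219, 202 and 195 in vehicle libraries. No group overlapped another, and both isoproterenol groups lay below both vehicle groups. Bbc3 fell 3.05-fold in DPP4_pos APCs (log2 difference -1.61 ± 0.10, limma adjusted p = 2.34e-12) and 2.24-fold in DPP4_neg APCs (log2 difference -1.16 ± 0.10, limma adjusted p = 1.35e-09). These values rest on 25 to 52 reads in each DPP4_pos isoproterenol library. The responses differed by -0.44 ± 0.14 (limma adjusted p = 0.0108), a difference that did not pass with quantile normalization (-0.18, limma adjusted p = 0.258).

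Pmaip1, on chromosome 18, encodes Noxa, the other BH3-only protein among the members. It had 76.4, 81.9, 84.8 and 48.9 normalized counts in the 4 DPP4_pos isoproterenol libraries, against 36.7, 40.9, 26.6 and 36.3 in the 4 DPP4_pos vehicle libraries. DPP4_neg APCs showed 65.6, 62.4, 75.7 and 64.3 normalized counts in isoproterenol libraries, against 120.5, 104, 116 and 137 in vehicle libraries. DPP4_neg vehicle libraries were the highest and DPP4_pos vehicle libraries the lowest, while the isoproterenol groups lay between them and overlapped each other. Pmaip1 rose 2.03-fold with isoproterenol in DPP4_pos APCs (log2 difference 1.02 ± 0.16, limma adjusted p = 6.25e-06) and fell 1.77-fold in DPP4_neg APCs (log2 difference -0.82 ± 0.16, limma adjusted p = 0.000142). Its responses differed by 1.84 ± 0.23, more than those of any other member (limma adjusted p = 5.02e-07). In DPP4_pos APCs it rose while Bbc3 fell, and its libraries varied widely, with 26 to 68 reads in each DPP4_pos isoproterenol library.

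Phlda3 (chromosome 1, 135766119 to 135769136, plus strand) encodes a small protein that keeps the kinase AKT from the membrane. It had 963, 1009, 985 and 973 normalized counts in the 4 DPP4_pos isoproterenol libraries, against 1864, 1859, 1919 and 1911 in the 4 DPP4_pos vehicle libraries. The DPP4_neg values were 1559, 1675, 1666 and 1617 normalized counts in isoproterenol libraries, against 2919, 2854, 2942 and 3192 in vehicle libraries. The groups were all apart, with DPP4_neg vehicle highest and DPP4_pos isoproterenol lowest. The gene fell in both populations, 1.92-fold in DPP4_pos APCs (log2 difference -0.94 ± 0.04, limma adjusted p = 5.49e-16) and 1.83-fold in DPP4_neg APCs (log2 difference -0.87 ± 0.04, limma adjusted p = 5.68e-15). It was the member whose responses did not differ at the threshold (-0.07 ± 0.05, limma adjusted p = 0.232), but they did with TMM scaling (-0.14, limma adjusted p = 0.03), quantile normalization (-0.22) and total read scaling (-0.33).

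Sesn1 (chromosome 10, 41809935 to 41908424, plus strand) encodes sestrin 1, a stress-induced inhibitor of the growth kinase mTORC1. It had 193, 195, 197 and 169 normalized counts in the 4 DPP4_pos isoproterenol libraries, against 645, 715, 680.2 and 652 in the 4 DPP4_pos vehicle libraries. DPP4_neg libraries had 212, 209, 215 and 218 normalized counts in isoproterenol libraries, against 333, 347, 364 and 326 in vehicle libraries. DPP4_pos vehicle libraries stood above all others, and both isoproterenol groups lay close together below both vehicle groups. Sesn1 fell 3.56-fold in DPP4_pos APCs (log2 difference -1.83 ± 0.06, limma adjusted p = 2.79e-17), the largest response of a member, and less in DPP4_neg APCs (log2 difference -0.68 ± 0.06, limma adjusted p = 2.22e-09). The responses differed by -1.15 ± 0.09 (limma adjusted p = 2.02e-10).

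Gdf15 (chromosome 8, 70629393 to 70632456, minus strand) encodes a secreted stress hormone that also answers to the integrated stress response. It had 96.6, 105, 149 and 92.1 normalized counts in the 4 DPP4_pos isoproterenol libraries, against 120.1, 100.3, 103 and 108 in the 4 DPP4_pos vehicle libraries. In DPP4_neg APCs it reached 378, 466, 391 and 429 normalized counts in isoproterenol libraries, against 231, 204, 178 and 244 in vehicle libraries. DPP4_neg isoproterenol libraries lay above all others, DPP4_neg vehicle libraries came next, and the DPP4_pos groups overlapped at the bottom. Gdf15 rose 1.95-fold in DPP4_neg APCs (log2 difference 0.96 ± 0.13, limma adjusted p = 7.77e-07), and its log2 difference in DPP4_pos APCs was 0.01 ± 0.13 (limma adjusted p = 0.929). The responses differed by -0.95 ± 0.18 (limma adjusted p = 9.23e-05). The value in DPP4_pos APCs depended on the scaling, at 0.46 with quantile normalization (limma adjusted p = 0.00164) and -0.26 with total read scaling (limma adjusted p = 0.0603). The summed macrophage and leukocyte markers given above were also higher in the isoproterenol libraries on average. They did not move alike, since in DPP4_neg APCs Csf1r averaged 693 with isoproterenol and 175 with vehicle, against 8.65 and 7.16 for Ptprc. C1qa alone had a lower mean with isoproterenol there (11.2, against 14.3 with vehicle). In DPP4_pos APCs Csf1r averaged 251 with isoproterenol and 148 with vehicle, and Ptprc 13.65 and 13.66. The part of these markers in the result was not tested.

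**Figure D2:**
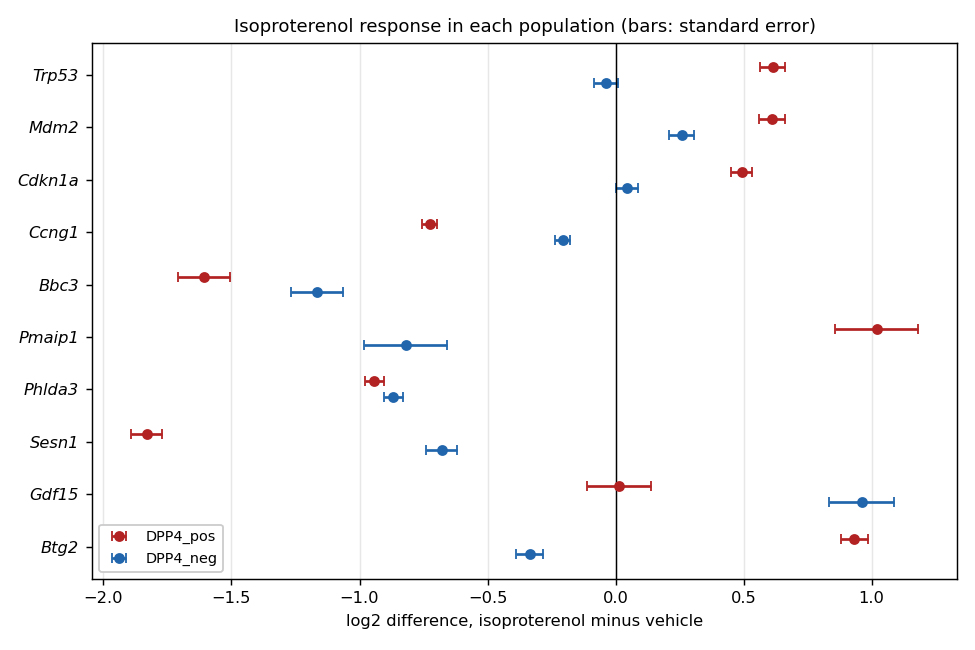
Log2 difference between isoproterenol and vehicle for each of the 10 genes (horizontal axis), in DPP4_pos APCs (red) and DPP4_neg APCs (blue); points are limma estimates from 4 libraries a group and bars are standard errors. Pmaip1 and Btg2 lie on opposite sides of 0 in the populations, and Phlda3 lies at nearly the same place in both.

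The response differed between the populations for 9 of 10 genes, 5 with a more positive response in DPP4_pos APCs (Trp53, Mdm2, Cdkn1a, Pmaip1 and Btg2) and 4 with a more negative one (Ccng1, Bbc3, Sesn1 and Gdf15). Over all genes the share was 31.6% in the positive and 31.0% in the negative direction, and the median was 0.14 over the members and -0.02 over all genes. At least a 2-fold difference between responses was found for 3 members (Pmaip1, Sesn1 and Btg2) and 15.6% of all genes. Under total read scaling 27.3% of the genes called in this comparison were higher, against 50.5% with the authors' scaling. Both responses and the difference between them share libraries, so their values stand side by side here and are not support for one another.

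The populations differed before stimulation. In vehicle libraries, 9 members were lower in DPP4_pos than in DPP4_neg APCs and 1, Sesn1, was higher, where 35.0% of all genes were lower and 31.6% higher. Sesn1 was 1.96-fold higher in DPP4_pos vehicle (log2 difference 0.97 ± 0.06, limma adjusted p = 4.84e-12). Pmaip1 was 3.35-fold lower in DPP4_pos vehicle (log2 difference -1.75 ± 0.16, limma adjusted p = 3.83e-09), and it was the member with at least a 2-fold difference, as were 15.8% of all genes. Btg2 and Gdf15 were each 1.97-fold lower (-0.98 ± 0.05, limma adjusted p = 3.35e-13, and -0.98 ± 0.13, limma adjusted p = 5.82e-07). Phlda3 (-0.66 ± 0.04) and Ccng1 (-0.47 ± 0.03) followed, and Trp53 (-0.29 ± 0.05), Bbc3 (-0.27 ± 0.10), Mdm2 (-0.26 ± 0.05) and Cdkn1a (-0.15 ± 0.04) had the smallest differences on the log2 scale. The median was -0.38 over the members and -0.01 over all genes. Bbc3 had limma adjusted p = 0.0218, which became 0.0536 without DPP4_pos vehicle replicate 1, 0.0665 without DPP4_neg vehicle replicate 2 and 0.0739 with total read scaling. Cdkn1a had limma adjusted p = 0.00425, which became 0.0884 with total read scaling.

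Under isoproterenol the difference between populations took another form. Trp53, Cdkn1a and Btg2 were higher in DPP4_pos than in DPP4_neg isoproterenol libraries, where 37.4% of all genes were, and Ccng1, Bbc3, Phlda3, Sesn1 and Gdf15 were lower, where 37.0% were. Trp53 was 1.29-fold higher (log2 difference 0.36 ± 0.05, limma adjusted p = 4.64e-07), Cdkn1a 1.23-fold (log2 difference 0.30 ± 0.04, limma adjusted p = 1.16e-06) and Btg2 1.22-fold (log2 difference 0.29 ± 0.05, limma adjusted p = 3.83e-05). Each of these genes was lower in DPP4_pos APCs under vehicle. Gdf15 was 3.80-fold lower in DPP4_pos isoproterenol (log2 difference -1.92 ± 0.13, limma adjusted p = 8.35e-12), the 1 member with at least a 2-fold difference, as 18.7% of all genes had. Ccng1 was 1.99-fold lower (-0.99 ± 0.03, limma adjusted p = 1.30e-17), Phlda3 1.66-fold (-0.73 ± 0.04) and Bbc3 1.64-fold (-0.72 ± 0.10). Mdm2 (0.09 ± 0.05, limma adjusted p = 0.101) and Pmaip1 (0.09 ± 0.16, limma adjusted p = 0.613) did not pass, and their groups overlapped. The median log2 difference was -0.04 over the members, and that over all genes rounded to -0.00.

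Some of these calls between populations under isoproterenol were close to the threshold, and others depended on the scaling. Sesn1 (log2 difference -0.18 ± 0.06, limma adjusted p = 0.0121) did not pass in DESeq2 (adjusted p = 0.111), in limma with only the groups compared (0.0686), with quantile normalization (0.352) or without DPP4_pos isoproterenol replicate 4 (0.0579). Mdm2 passed without DPP4_pos isoproterenol replicate 2 (0.14, limma adjusted p = 0.0166) and, in the other direction, with quantile normalization (-0.15, limma adjusted p = 0.0064). Cdkn1a did not pass with quantile normalization (0.05), nor Btg2 with total read scaling (0.09), under which 34.3% of the genes called were higher, against 50.3% with the authors' scaling. The 6 mural markers had a summed level of 4643 to 5562 normalized counts in DPP4_pos isoproterenol, 7424 to 8537 in DPP4_pos vehicle, 71362 to 77039 in DPP4_neg isoproterenol and 102653 to 112762 in DPP4_neg vehicle libraries, and none was at 0 in any library. Most of that sum was Acta2, which with Myh11, Abcc9 and Cspg4 had the lower mean in DPP4_pos APCs under both treatments. Notch3 averaged 386 in DPP4_pos isoproterenol, 1053 in DPP4_pos vehicle, 303 in DPP4_neg isoproterenol and 798 in DPP4_neg vehicle libraries, so it had the higher mean in DPP4_pos APCs, as Rgs5 had under isoproterenol (22.5 to 32.1 in DPP4_pos and 5.14 to 17.8 in DPP4_neg libraries). The 6 endothelial markers summed to 1169 to 1293 in DPP4_pos isoproterenol, 1097 to 1154 in DPP4_pos vehicle, 169 to 211 in DPP4_neg isoproterenol and 159 to 188 in DPP4_neg vehicle libraries, with Cldn5 at 0 in at least 1 DPP4_neg vehicle library. In DPP4_pos libraries the sum was mostly Kdr, which averaged 684 in isoproterenol and 39.9 in vehicle, and Tek, which averaged 410.2 in isoproterenol and 1013 in vehicle. Pecam1, Cdh5, Emcn and Cldn5 were low there, with means of 5.12 to 57.5 in DPP4_pos isoproterenol and 5.84 to 37.1 in DPP4_pos vehicle. The part of these other cell programs in the differences between populations was not tested.

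**Figure D3:**
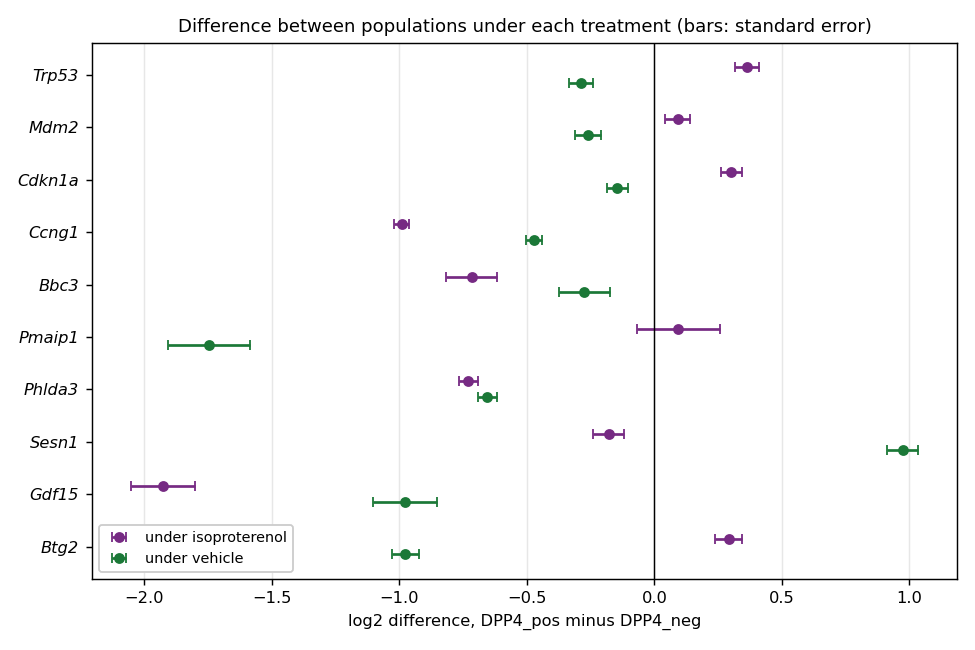
Log2 difference between DPP4_pos and DPP4_neg APCs for each of the 10 genes (horizontal axis), under isoproterenol (purple) and under vehicle (green); points are limma estimates from 4 libraries a group and bars are standard errors. Trp53, Cdkn1a and Btg2 lie right of 0 under isoproterenol and left of 0 under vehicle, and Sesn1 does the reverse.

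The order of the members among themselves also differed between groups. Per kilobase of exon, Cdkn1a was the highest member in DPP4_pos isoproterenol libraries (1358 ± 30.7 normalized counts per kb, SD, n = 4), followed by Ccng1 (918 ± 23.2) and Phlda3 (630.2 ± 12.6). In DPP4_pos vehicle libraries Ccng1 led (1518 ± 16.8), ahead of Phlda3 (1211 ± 20.1) and Cdkn1a (967 ± 57.6). Ccng1 was also first in DPP4_neg isoproterenol (1824 ± 54.0), with Cdkn1a (1102 ± 32.4) and Phlda3 (1045 ± 34.1) next. In DPP4_neg vehicle, Ccng1 (2105 ± 41.9) and Phlda3 (1909 ± 95.0) were well above Cdkn1a (1068 ± 54.2). Trp53 and Mdm2 differed little per kb in 3 groups, with 436 ± 3.07 for Trp53 and 447 ± 37.5 for Mdm2 in DPP4_pos isoproterenol, 285 ± 14.9 and 292 ± 11.6 in DPP4_pos vehicle, and 348 ± 15.7 and 350.3 ± 17.0 in DPP4_neg vehicle. In DPP4_neg isoproterenol libraries Trp53 was lower, at 339 ± 23.1, than Mdm2, at 419 ± 11.9. The BH3-only genes were among the lowest members, at 25.9 ± 2.88 for Bbc3 and 26.7 ± 6.02 for Pmaip1 in DPP4_pos isoproterenol. Lengths are unions of GENCODE M21 exons and may differ from the annotation used for counting.

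The wider p53 network was read from lists of textbook members, chosen with earlier results of these data known. Each count is set beside the share of all genes, and no list was tested as a set. Of 18 tested regulators of p53, 8 rose and 6 fell with isoproterenol in DPP4_pos APCs, and 7 rose and 5 fell in DPP4_neg APCs (list medians of 0.09 and 0.09 on the log2 scale, against -0.05 and -0.02 over all genes). Over all genes 39.4% rose and 43.3% fell in DPP4_pos APCs, and 32.1% rose and 33.6% fell in DPP4_neg APCs, so the list's counts lie near the background. The ubiquitin protease gene Usp7, whose product acts on Mdm2 and p53, averaged 3594 ± 42.3 normalized counts in DPP4_pos isoproterenol and 1934 ± 44.8 in DPP4_pos vehicle libraries (SD, n = 4; log2 difference 0.89 ± 0.03). Cop1, another ubiquitin ligase of p53, had 1541 ± 18.7 in DPP4_pos isoproterenol and 918 ± 29.7 in DPP4_pos vehicle (0.75 ± 0.04), and it fell slightly in DPP4_neg APCs (-0.11 ± 0.04). Chek2, the checkpoint kinase that phosphorylates p53 after DNA breaks, fell 3.03-fold to 55.6 ± 5.07 in DPP4_pos isoproterenol, against 170.3 ± 7.35 in DPP4_pos vehicle, and this response differed from that of DPP4_neg APCs (-1.38 ± 0.13, limma adjusted p = 7.18e-09). In DPP4_neg APCs the kinase genes Hipk2 (-0.66 ± 0.10) and Atr (-0.56 ± 0.08) fell, and the acetyltransferase gene Kat5 (0.45 ± 0.06) and the phosphatase gene Ppm1d (0.36 ± 0.06) rose. The DPP4_pos log2 differences of these genes were 0.05 ± 0.10 for Hipk2 (limma adjusted p = 0.661), -0.30 ± 0.08 for Atr, 0.37 ± 0.06 for Kat5 and 0.20 ± 0.06 for Ppm1d, all but Hipk2 past the threshold. Mdm4, the Mdm2 paralog that inhibits p53, was higher in DPP4_pos vehicle (1138 ± 11.2) than in DPP4_neg vehicle (735 ± 56.9; 0.63 ± 0.08).

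Among 15 further targets that act in arrest and repair, 5 rose and 8 fell in DPP4_pos APCs, and 3 rose and 11 fell in DPP4_neg APCs (medians -0.13 and -0.40, against -0.05 and -0.02 over all genes). The shares of all genes were 39.4% higher and 43.3% lower in DPP4_pos APCs, and 32.1% higher and 33.6% lower in DPP4_neg APCs. Gadd45a, a growth arrest gene, rose in both, to 1443 ± 113 in DPP4_pos isoproterenol, against 530.0 ± 9.97 in DPP4_pos vehicle (1.44 ± 0.08), and to 654 ± 84.6 in DPP4_neg isoproterenol, against 269 ± 20.3 in DPP4_neg vehicle (1.27 ± 0.08). Btg1, the paralog of Btg2, rose 3.51-fold in DPP4_pos APCs, with 6421 ± 162 in isoproterenol and 1831 ± 79.3 in vehicle libraries, and its response was larger than that of DPP4_neg APCs (1.13 ± 0.06, limma adjusted p = 9.44e-13). The polo-like kinase gene Plk3 rose 4.81-fold in DPP4_pos APCs (2.27 ± 0.08) and less in DPP4_neg APCs (0.85 ± 0.08). Plk2 rose in DPP4_pos APCs (0.57 ± 0.08) and fell in DPP4_neg APCs (-1.12 ± 0.08), and its response was 1.69 ± 0.11 more positive in DPP4_pos APCs (limma adjusted p = 2.08e-11). Trp53inp1, a stress protein gene, fell 2.86-fold in DPP4_pos APCs, with 821 ± 78.0 in isoproterenol and 2342 ± 59.9 in vehicle libraries, and it also fell in DPP4_neg APCs (-0.40 ± 0.07). The YAP inhibitor gene Ptpn14 fell in both populations (-1.44 ± 0.07 in DPP4_pos and -1.43 ± 0.07 in DPP4_neg APCs), as did the translesion polymerase gene Polk (-1.42 ± 0.06 in DPP4_pos and -1.26 ± 0.06 in DPP4_neg APCs). Their responses did not differ at the threshold (-0.01 ± 0.09, limma adjusted p = 0.96, for Ptpn14 and -0.16 ± 0.09, limma adjusted p = 0.129, for Polk).

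Of 15 further apoptosis targets, 7 rose and 6 fell in DPP4_pos APCs, and 5 rose and 4 fell in DPP4_neg APCs (medians 0.11 and -0.08, against -0.05 and -0.02 over all genes). The background was 39.4% of all genes higher and 43.3% lower in DPP4_pos APCs, and 32.1% higher and 33.6% lower in DPP4_neg APCs. The death receptor gene Fas fell with Bbc3, to 51.6 ± 1.62 in DPP4_pos isoproterenol, against 254 ± 9.46 in DPP4_pos vehicle (-2.28 ± 0.10), and to 80.3 ± 14.8 in DPP4_neg isoproterenol, against 275 ± 8.13 in DPP4_neg vehicle (-1.78 ± 0.10). Eda2r, a receptor of the same family, fell 2.04-fold in DPP4_pos and 1.95-fold in DPP4_neg APCs. Aen, which encodes a nuclease that enhances apoptosis, rose in DPP4_pos APCs (0.95 ± 0.05), and its response differed from that of DPP4_neg APCs by 1.02 ± 0.08 (limma adjusted p = 1.74e-10). Between populations, 11 of these targets were lower and 2 higher in DPP4_pos than in DPP4_neg vehicle libraries, where 35.0% of all genes were lower and 31.6% higher, and the exception of largest size was the inflammatory caspase gene Casp1 (1.88 ± 0.12).

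Of 15 further targets in metabolism and autophagy, 6 rose and 8 fell in DPP4_pos APCs, and 10 rose and 4 fell in DPP4_neg APCs (medians -0.47 and 0.19, against -0.05 and -0.02 over all genes). Of all genes, 39.4% rose and 43.3% fell in DPP4_pos APCs, and 32.1% rose and 33.6% fell in DPP4_neg APCs. Ddit4 (Redd1), an inhibitor of mTORC1 that hypoxia and glucocorticoids are known to raise, had the largest change of any listed gene that the naming rule took, at 5961 ± 406 in DPP4_pos isoproterenol, against 353 ± 13.4 in DPP4_pos vehicle (16.8-fold), and 4710.2 ± 233 in DPP4_neg isoproterenol, against 618 ± 81.5 in DPP4_neg vehicle (7.65-fold). It rose in the same libraries in which Sesn1, another inhibitor of mTORC1, fell. Sesn3, a relative of Sesn1, had 846 ± 48.6 in DPP4_pos isoproterenol and 797 ± 21.5 in DPP4_pos vehicle, a difference that did not pass, and it was 2.83-fold higher in DPP4_pos than in DPP4_neg vehicle libraries. The glutaminase gene Gls2 rose 3.50-fold in DPP4_pos and 5.09-fold in DPP4_neg APCs. Tigar, which slows glycolysis, rose 3.16-fold in DPP4_pos APCs, and its response was larger there than in DPP4_neg APCs (1.14 ± 0.11, limma adjusted p = 9.02e-09). Lpin1, a phosphatidate phosphatase gene, fell in DPP4_pos APCs (-1.11 ± 0.05) and rose in DPP4_neg APCs (0.19 ± 0.05), and the responses differed by -1.30 ± 0.07 (limma adjusted p = 2.89e-13).

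Cell cycle genes that p53 is known to repress through p21 were read beside Cdkn1a. In DPP4_pos APCs, 15 of 20 fell with isoproterenol and 3 rose (median -0.40, against -0.05 over all genes, of which 43.3% fell and 39.4% rose). In DPP4_neg APCs 6 fell and 5 rose (median -0.01, against -0.02 over all genes, of which 33.6% fell and 32.1% rose). The response was more negative in DPP4_pos APCs for 14 of the 20 and more positive for 1 (median -0.30, against -0.02 over all genes, of which 31.0% were more negative and 31.6% more positive). Ccnb2, for the mitotic cyclin B2, had 227 ± 33.6 in DPP4_pos isoproterenol, against 656 ± 16.7 in DPP4_pos vehicle, and 489 ± 12.6 in DPP4_neg isoproterenol, against 622 ± 26.6 in DPP4_neg vehicle libraries. Its responses differed by -1.19 ± 0.10 (limma adjusted p = 2.20e-09). E2f1, for a factor of S-phase entry, fell 2.41-fold in DPP4_pos and 1.35-fold in DPP4_neg APCs, and Top2a, for the topoisomerase of dividing cells, rose in DPP4_neg APCs (0.50 ± 0.05) and less in DPP4_pos APCs (0.14 ± 0.05). At the threshold, DPP4_pos APCs were lower than DPP4_neg APCs in 20 of 20 genes under isoproterenol and in 18 of 20 under vehicle. The medians were -0.83 and -0.46, against -0.00 and -0.01 over all genes. Of all genes, 37.0% were lower in DPP4_pos APCs under isoproterenol and 35.0% under vehicle. Cdkn1a itself was higher in DPP4_pos APCs under isoproterenol and lower under vehicle. The first difference did not pass with quantile normalization (0.05, limma adjusted p = 0.325), nor the second with total read scaling (-0.08, limma adjusted p = 0.0884).

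**Figure D4:**
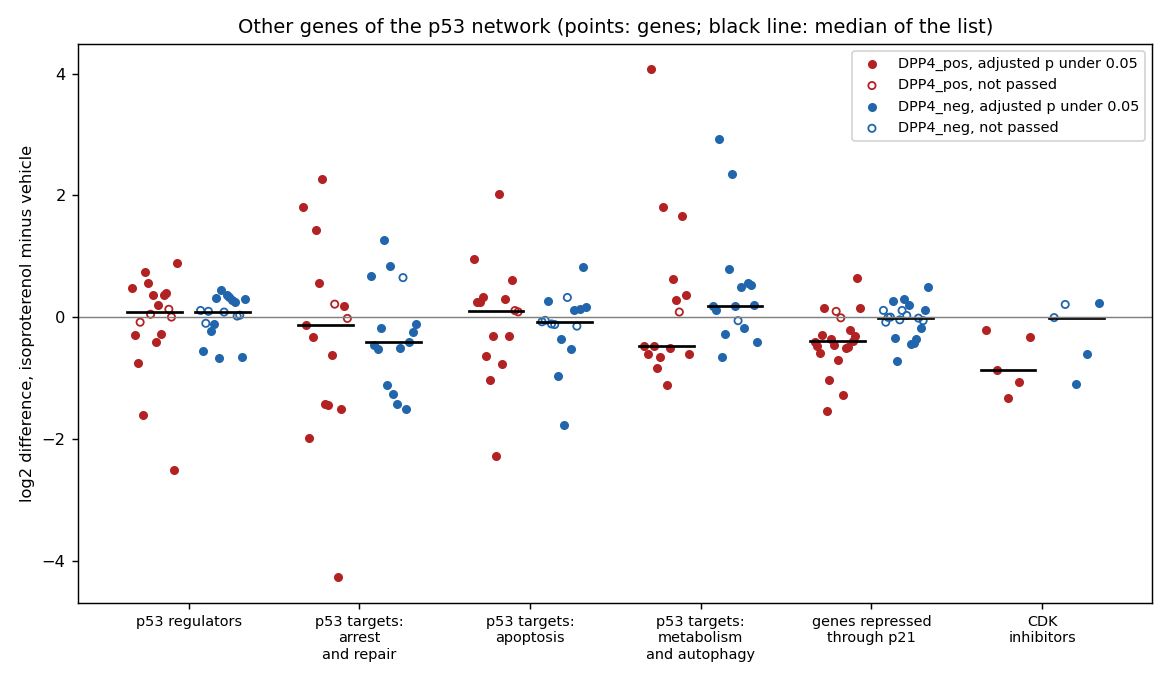
Log2 difference between isoproterenol and vehicle (vertical axis) for the tested genes of 6 lists of the p53 network, in DPP4_pos APCs (red) and DPP4_neg APCs (blue); each point is a gene, filled where the limma adjusted p is under 0.05, and black lines are list medians. The highest point is Ddit4 in DPP4_pos APCs, and the lowest, among arrest and repair targets, is the noncoding Trp53cor1, which had 1 read in the DPP4_pos isoproterenol libraries.

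Genes whose pattern over the 16 libraries was most like that of Cdkn1a and Mdm2 were ranked by the mean absolute difference of centred log2 values. Ranked were tested genes whose normalized count averaged 50 or more, and the members themselves were left out beforehand. The nearest to Cdkn1a were Szrd1, at 0.0424, and Sbf1, at 0.0476. Szrd1 averaged 2217 ± 57.8 in DPP4_pos isoproterenol, 1637 ± 39.2 in DPP4_pos vehicle, 1796 ± 23.8 in DPP4_neg isoproterenol and 1701 ± 24.6 in DPP4_neg vehicle libraries. Smndc1, Canx, Ubqln2 and Ykt6 were nearest to Mdm2, at 0.0497 to 0.0533. Canx, for the chaperone calnexin, averaged 14535 ± 333 in DPP4_pos isoproterenol, 9339.7 ± 74.6 in DPP4_pos vehicle, 14001 ± 626 in DPP4_neg isoproterenol and 11542 ± 252 in DPP4_neg vehicle libraries. None of the other lists above holds any of these genes.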

How the data were processed

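RNA sequencing was made from 500 ng of total RNA for each of the 16 libraries, per the labels' protocols. The submitters' processing notes list DESeq2 1.6.3, featureCounts 1.4.6, HISAT2 2.0.1 and Trim Galore 0.4.1, and as genome builds mm10 and GRCm38. Their settings, the strandedness and the annotation were not given in the sources used here. For each gene and library, the deposited signal is a normalized count, the authors' read count over a size factor. All 280334 deposited values above 0 were whole multiples of a library's step within 0.001, so whole reads were recovered for 100.0% of them. Entries without a symbol held 0.0926% of the normalized counts and are not named.

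From these values, genes with a normalized count of at least 10 in at least 4 libraries (14005) were fitted with limma 3.58.1 (R 4.3.3, mean-variance trend) on log2(normalized count + 1), with 4 group means over all 16 libraries, two-sided, Benjamini-Hochberg adjustment over all genes tested and a threshold of 0.05. Differences are given ± SE. This scale understates changes of low genes, and the number of reads limits Bbc3 and Pmaip1 most. Compared were isoproterenol and vehicle within a population, the populations' responses with each other, and DPP4_pos with DPP4_neg APCs within a treatment. Scripts were tested on simulated data. Alternatives were edgeR 4.0.16 and DESeq2 1.42.0 on the recovered reads, TMM, quantile and total read scaling, pseudocounts of 0.5 and 5, other filters, a replicate block, only the groups compared, and leaving out each library. On the recovered reads, edgeR called 11581 genes in DPP4_pos APCs and 9543 in DPP4_neg APCs for isoproterenol against vehicle.

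The 10 genes and the other lists were chosen with earlier results of these data known. All 10 members are named. Of the other lists, at most 4 changed genes with the largest difference and a mean normalized count of at least 50 were named per list and comparison, and other values of these genes are given beside them. Not all genes that these rules take are reported here, neither from the lists nor of the genes most like Cdkn1a. Left out were, among others, Cdkn2a, Tnfrsf23, Fdxr and Rrm2. With isoproterenol Fdxr had log2 differences of -0.65 ± 0.09 in DPP4_pos and 0.79 ± 0.09 in DPP4_neg APCs. Those of Rrm2, of the genes repressed through p21, were 0.64 ± 0.04 and 0.11 ± 0.04. Gene positions are from GENCODE M21 and the pseudogene from RefSeq, both GRCm38. No pair of libraries in a group agreed within counting noise (chi-square over its degrees of freedom was 1.61 at the lowest and 9.21 at the highest).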

Additional observations from a re-analysis of the deposited data

Results flagged for a closer look

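Among the 40 sets of 4 libraries examined for single values that stand apart, 2 were found, both in DPP4_pos isoproterenol replicate 4, the shallowest library. Sesn1 was lowest there, at 169 normalized counts (90 reads), with the gap to the next library making up 0.857 of the range of the group. Btg2 was highest there, at 748 normalized counts (398 reads), with 0.899 of the range. Both exceed Dixon's critical value for 4 samples, and chance flags about 1 in 20 groups. Without that library Sesn1 did not pass between DPP4_pos and DPP4_neg isoproterenol libraries (-0.13, limma adjusted p = 0.0579), and no other call on a member changed.

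The response to isoproterenol differed between DPP4_pos and DPP4_neg APCs, by a limma test of the difference itself, for 9 members. By the same test, 31.6% of all genes had a more positive and 31.0% a more negative response in DPP4_pos APCs. The difference was 1.84 for Pmaip1 and 1.27 for Btg2, the members with responses of opposite sign. It was 0.65 for Trp53, 0.45 for Cdkn1a and 0.35 for Mdm2. It was -1.15 for Sesn1, -0.95 for Gdf15, -0.52 for Ccng1 and -0.44 for Bbc3. All are on the log2 scale, where a positive value means a more positive response in DPP4_pos APCs.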

How the results depend on the processing

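Each of the 50 member results (10 genes in 5 comparisons) was recomputed under the alternatives, 1340 values in all. The call held in 1321 values, 13 lost the call, 6 gained one and 0 changed direction while called in the original fit. A value called in neither fit counts as held whatever its sign. Gdf15 in DPP4_pos APCs was such a value, at 0.01 originally and -0.26 with total read scaling. With edgeR, the pseudocounts of 0.5 and 5, no filter and the stricter filter of 50, all 50 calls held. Most changes came with quantile normalization (7) and total read scaling (5), and the cause was not tested. The number of members called was 8 under all alternatives for isoproterenol in DPP4_neg APCs, 9 to 10 in DPP4_pos APCs, 8 to 10 for the difference between responses, 8 to 10 between populations under vehicle and 7 to 9 under isoproterenol. With 1 library left out, genes called ranged over 11298 to 11659 for isoproterenol in DPP4_pos APCs, 8707 to 9306 in DPP4_neg APCs, 8420 to 8699 for the difference between responses, 8838 to 9481 between populations under vehicle and 10150 to 10360 under isoproterenol. The fit with only the groups compared gives no value for the difference between responses, which needs all 16 libraries. Replicate numbers are shared across groups, but same-numbered libraries did not deviate together (correlations of -0.231 to 0.131, against -0.180 to 0.163 for other numbers), so they were not taken as pairs. With the replicate block, genes called numbered 11612 in DPP4_pos APCs, 9295 in DPP4_neg APCs, 8854 for the difference, 9393 under vehicle and 10451 under isoproterenol, and all 50 member calls held. Depth limits Bbc3 and Pmaip1, with 25 and 26 reads in their lowest library.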

Other observations

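Other inhibitors of cyclin-dependent kinases moved apart from Cdkn1a. All 5 of them fell with isoproterenol in DPP4_pos APCs, where Cdkn1a rose, and in DPP4_neg APCs 1 rose and 2 fell (medians -0.87 and -0.01, against -0.05 and -0.02 over all genes). Of all genes, 43.3% fell in DPP4_pos APCs, and 32.1% rose and 33.6% fell in DPP4_neg APCs. Cdkn2b (p15) fell 2.50-fold in DPP4_pos and 2.14-fold in DPP4_neg APCs, and Cdkn2c (p18) fell 2.08-fold in DPP4_pos and 1.51-fold in DPP4_neg APCs. Cdkn1c, which encodes p57, had 105 to 127 normalized counts in DPP4_pos isoproterenol, 198 to 231 in DPP4_pos vehicle, 13.2 to 23.7 in DPP4_neg isoproterenol and 12.3 to 18.3 in DPP4_neg vehicle libraries. It was 6.11-fold higher in DPP4_pos than in DPP4_neg APCs under isoproterenol and 12.9-fold higher under vehicle (limma adjusted p = 3.08e-12 and 8.13e-15).

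A pair of low genes of the network was picked out after their values were seen. Other low genes of the lists went both ways with isoproterenol in DPP4_pos APCs. Perp rose (log2 difference 2.02 ± 0.43, limma adjusted p = 0.000191, on 19 reads against 5), Ddb2 fell (-1.98 ± 0.20) and Sfn did not pass (0.21 ± 0.33). Trp53cor1, the noncoding RNA lincRNA-p21 transcribed near Cdkn1a, had 1 read in the DPP4_pos isoproterenol libraries together, against 111 in DPP4_pos vehicle (ratio of vehicle to isoproterenol 62.3, 95% counting interval 11.0 to 2483), and 31 reads in DPP4_neg isoproterenol, against 134 in DPP4_neg vehicle (3.08, 95% counting interval 2.07 to 4.71). In DPP4_pos APCs it fell (limma adjusted p = 2.90e-11) and its neighbour Cdkn1a rose. Trp63, which encodes the p53 relative p63, had 10 reads in DPP4_pos isoproterenol, against 110 in DPP4_pos vehicle (6.18, 95% counting interval 3.23 to 13.2), and 68 in DPP4_neg isoproterenol, against 154 in DPP4_neg vehicle (1.61, 95% counting interval 1.21 to 2.18). These ratios are corrected for library scale, and their intervals cover counting error only.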
